A study of Mus musculus with 6 samples.

Results

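The genes described here are 10 members of the myostatin, activin and bone morphogenetic protein (BMP) pathway, measured by array in skeletal muscle of mdx mice given an antibody to CD25 or a control antibody. They were taken by name: the ligands Mstn, Gdf11, Inhba, Inhbb, Bmp4 and Gdf5, the secreted inhibitors Fst and Fstl3, and the receptors Acvr2a and Acvr2b. All 10 were found among the 19752 genes that the array names singly, each with 1 probe set, the group of probes whose signals are summarised into 1 value.

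Myostatin and its close relative GDF11 are secreted ligands of the transforming growth factor-beta superfamily, and myostatin, made largely by muscle fibres, restrains muscle growth. Activins are dimers of the inhibin beta chains that Inhba and Inhbb encode, and they act on muscle in the same direction through the type II receptors ACVR2A and ACVR2B and the transcription factors SMAD2 and SMAD3. Follistatin and FSTL3 bind these ligands and keep them from their receptors. BMP4 and GDF5 signal through SMAD1, SMAD5 and SMAD9. BMP signalling counters muscle loss, and the branches compete for shared receptors and for SMAD4.

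The mdx mouse carries no dystrophin, and its fibres undergo cycles of damage and repair amid infiltrating immune cells. The 6 samples form 2 groups of 3, all labelled mdx, male and 6 weeks old. The anti-CD25 group received clone PC61, which binds the interleukin-2 receptor alpha chain carried by regulatory T cells, and the rat IgG group received control immunoglobulin. Injections were intraperitoneal, on days 17 and 20 of age, and per the design text the muscles were taken 7 days after the later one, which is not the age the labels give. The series title states the question as what regulatory T cell depletion does to dystrophic muscle. The labels do not say whether each sample is a separate animal, which muscle was taken or whether tissue was pooled, so the p-values reflect only how far these samples spread, part of which may be technical.

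Total RNA was hybridised to 1 Affymetrix array per sample, and the values are intensities, given here on the log2 scale, on which a difference of 1 is a doubling. Precision is limited by the number of arrays, and the median 95% interval over all genes reached 0.22 to each side. Array medians ran from 149.8 to 151.5 intensity units, and lower quartiles from 51.2 to 57.7. Fibre markers were bright and even, with Acta1, skeletal actin, at 13.80 ± 0.040 (SD, n = 3) in the rat IgG group and 13.79 ± 0.011 (SD, n = 3) in the anti-CD25 group. Foxp3, the transcription factor that defines regulatory T cells, measured 6.57 ± 0.13 (SD, n = 3) and 6.48 ± 0.11 (SD, n = 3), so the array itself gives little view of the depletion. Against the label male, Xist, the RNA of the inactive X chromosome, was high on 4 arrays, at 11.77 to 11.94, and low on rat IgG 3 and anti-CD25 3, at 5.48 and 5.49. Uty, a Y-linked gene, stood at 8.57 or above on those 2 arrays and at 3.94 or below on the other 4. Each group thus held 2 arrays of high and 1 of low Xist. Arrays of the same group correlated at 0.991 to 0.996 across genes. When limma weighted the arrays by their spread, rat IgG 3 had the lowest weight, 0.47. The differences that follow were therefore also computed without each array and within the Xist classes.

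Mstn and Gdf11 encode closely related proteins, and their upstream sequences share stretches too. The 250 bases before their annotated starts are shown for that reason, with those of Acvr2b, the receptor that binds both proteins. They come from RefSeq, build GRCm38.p6, whose promoter table held 8 of the 10 genes and not Gdf5 or Fst. The Mstn window is chr1:53061390-53061639 on the plus strand, that of Gdf11 is chr10:128891719-128891968 on the minus strand, and that of Acvr2b is chr9:119401928-119402177 on the plus strand. Capitals mark the exact stretches of at least 8 letters that Mstn and Gdf11 share on the gene's strand, and the letters TATAAA of the TATA box.
Mstn: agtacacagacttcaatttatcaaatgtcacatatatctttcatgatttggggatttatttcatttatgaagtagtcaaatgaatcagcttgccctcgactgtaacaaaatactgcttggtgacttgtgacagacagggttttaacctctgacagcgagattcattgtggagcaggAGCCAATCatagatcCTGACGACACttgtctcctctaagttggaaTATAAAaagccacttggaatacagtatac
Gdf11: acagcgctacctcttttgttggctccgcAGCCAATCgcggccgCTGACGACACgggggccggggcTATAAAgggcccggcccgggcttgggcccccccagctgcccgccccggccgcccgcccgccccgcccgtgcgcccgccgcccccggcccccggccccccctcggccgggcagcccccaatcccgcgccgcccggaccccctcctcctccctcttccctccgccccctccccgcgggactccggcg
Acvr2b: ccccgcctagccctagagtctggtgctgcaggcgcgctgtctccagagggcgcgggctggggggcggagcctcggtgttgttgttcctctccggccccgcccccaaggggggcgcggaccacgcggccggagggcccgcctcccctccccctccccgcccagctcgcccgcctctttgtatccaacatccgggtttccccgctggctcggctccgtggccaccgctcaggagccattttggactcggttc
The pair shared 2 stretches, AGCCAATC, which holds the CCAAT motif, and CTGACGACAC. The starts of these stretches lay 15 bases apart in both genes, and TATAAA began 30 bases after the start of the second in Mstn and 22 bases after it in Gdf11. On either strand, CTGACGACAC occurred in 12 of 32851 promoters of the table (0.0365%), AGCCAATC in 3.62% and TATAAA in 12.4%. In Mstn the TATAAA began 29 bases before the annotated start and in Gdf11 185 bases before it. E-boxes, the motif CANNTG to which myogenic factors can bind, numbered 4 in Mstn, 1 in Gdf11 and 0 in Acvr2b, and 66.2% of promoters held at least 1. The windows differed in composition, with 3 CG dinucleotides in Mstn, 33 in Gdf11 and 24 in Acvr2b against a median of 6 over all promoters. A match is a run of letters and was not tested as a binding site.

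By limma, 0 of the 10 genes reached an adjusted p under 0.05, as did 0 of all 19752 (0% called). At an unadjusted p under 0.05 there was 1 of 10, Gdf11, which was lower, where 6.28% of all genes lay under that value, 2.30% higher and 3.98% lower. The groups did not overlap for 2 of 10, Gdf11 and Acvr2b, both lower with anti-CD25, against 11.7% of all genes in either direction, 4.28% in the higher and 7.46% in the lower one. Anti-CD25 values were lower on average for 7 of the 10 genes and higher for 3, with a median difference of -0.058. Over all genes 58.9% were lower and the median difference was -0.026, so these counts stood close to the background. Differences are anti-CD25 minus rat IgG throughout.

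**Figure D1:**
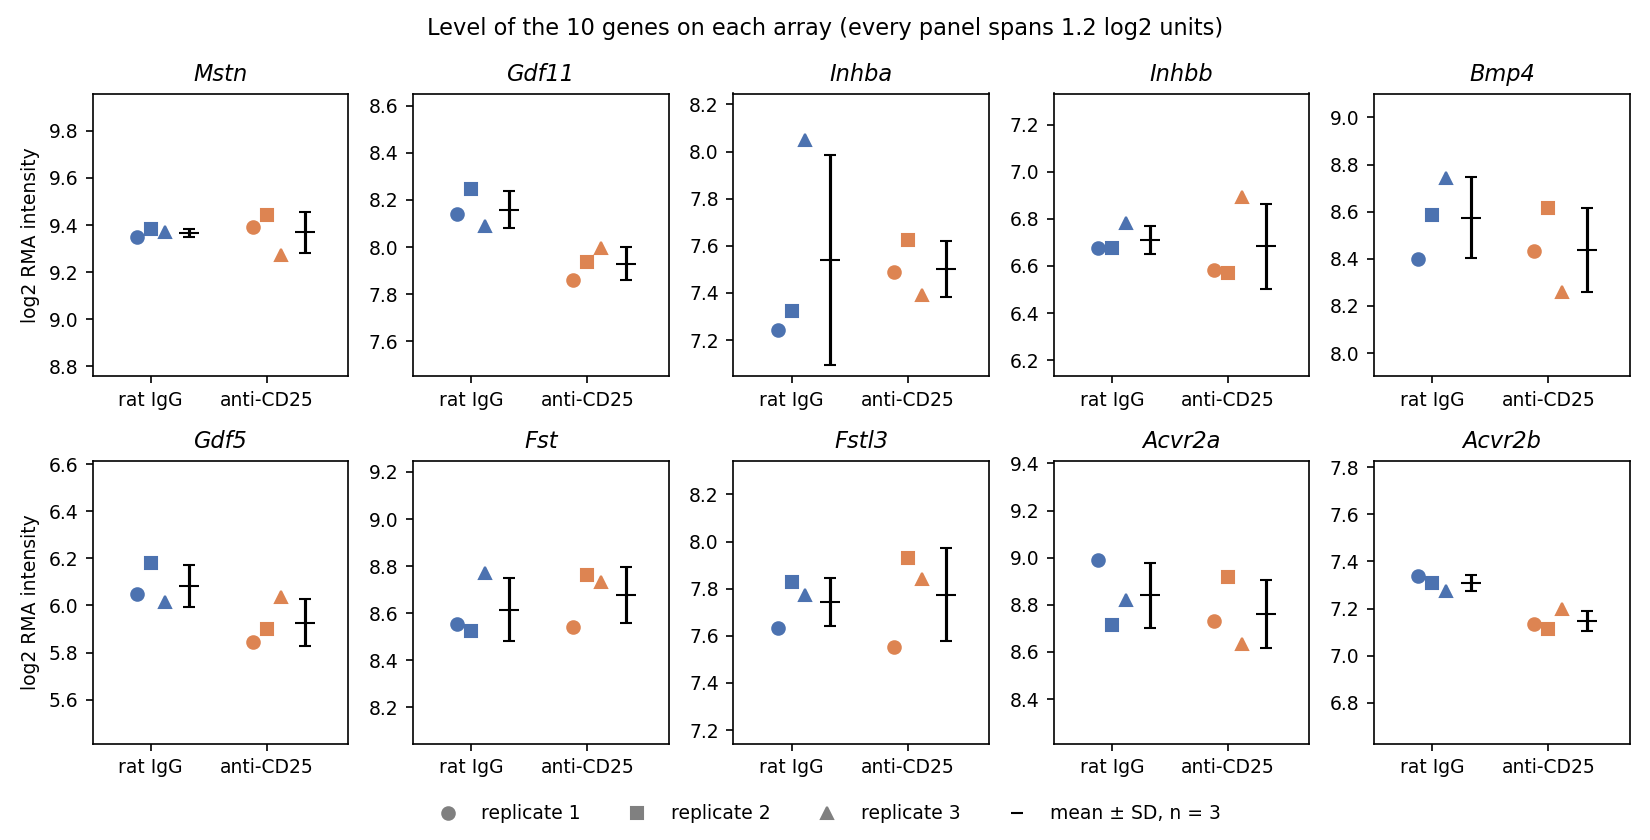
Log2 intensity of each gene (vertical axis) on the 3 rat IgG arrays (blue) and the 3 anti-CD25 arrays (orange), with symbols for the replicate number and a black bar for mean ± SD (n = 3); each panel covers the same span. Groups are apart for Gdf11 and Acvr2b, Mstn is nearly level, and the Inhba value of rat IgG 3, 8.05, stands above the other 5.

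Among the ligands, Mstn was even across the arrays. It measured 9.35, 9.38 and 9.37 in rat IgG replicates 1 to 3 and 9.39, 9.44 and 9.27 in anti-CD25 replicates 1 to 3, the order used for each gene from here on. The rat IgG values lay inside the range of the anti-CD25 values, whose lowest was replicate 3. The means were 9.37 ± 0.017 (SD, n = 3) and 9.37 ± 0.086 (SD, n = 3), a 1.00-fold ratio. The difference was 0.0020 (SE 0.080, 95% interval -0.18 to 0.18, limma adjusted p = 0.998), and its sign has no weight, since it turned with 5 of 18 alternatives. The 6 values spanned 0.17 log2 units, and 9.90% of genes had a narrower span.

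Gdf11, whose mature protein resembles myostatin but which is expressed in many tissues, was the gene of the 10 with the largest difference. Its values were 8.14, 8.24 and 8.09 with rat IgG and 7.86, 7.94 and 7.996 with anti-CD25. Every anti-CD25 array lay below every rat IgG array, with 7.996 and 8.09 the closest pair. The means of 8.16 ± 0.079 (SD, n = 3) and 7.93 ± 0.068 (SD, n = 3) gave a ratio of 0.854 and a difference of -0.23 (SE 0.083, 95% interval -0.42 to -0.039). The unadjusted p was 0.0233 and limma's adjusted p was 0.750, so the gene did not pass. Among the 4 high Xist arrays the difference was -0.30, and the low Xist pair gave -0.094. The difference stayed below 0 under all 18 alternatives, but groups without overlap keep their sign whichever arrays are left out. Splitting by Xist class cannot turn it either, and several other alternatives change only the fit. The unadjusted p by limma was 0.0796 with rat IgG 2 left out, 0.0849 with anti-CD25 1 left out and 0.0521 with anti-CD25 2 left out.

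Inhba, the beta A chain of activin A, varied the most. It measured 7.24, 7.32 and 8.05 with rat IgG and 7.49, 7.63 and 7.39 with anti-CD25. The anti-CD25 arrays all lay above rat IgG 1 and 2 and all below rat IgG 3. Group means were 7.54 ± 0.45 (SD, n = 3) and 7.50 ± 0.12 (SD, n = 3), and the difference was -0.036 (SE 0.19, 95% interval -0.48 to 0.40, limma adjusted p = 0.976). Its spread within groups was larger than that of 98.1% of genes. The direction rested on rat IgG 3, since the difference was 0.22 (SE 0.10, adjusted p = 0.332 by limma) without that array. The 4 high Xist arrays gave 0.28 and the low Xist pair, which is 1 array per group without a spread of its own and includes rat IgG 3, gave -0.66.

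Rat IgG 3 was high in immediate early genes too, which respond fast to stress and handling. Hspa1a, the heat shock gene measured with them, stood at 8.90 on rat IgG 3 and 8.87 on anti-CD25 2. The mean of the 7 measured of 8 listed genes, Hspa1a included, relative to its mean over the 6 arrays, was -0.32, -0.065 and 0.58 in rat IgG replicates 1 to 3. It was -0.018, -0.013 and -0.16 in anti-CD25 replicates 1 to 3. The arrays stood in nearly the same order as for Inhba, with rat IgG 1 lowest and rat IgG 3 highest in each. The part of this in the Inhba values was not tested.

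**Figure D2:**
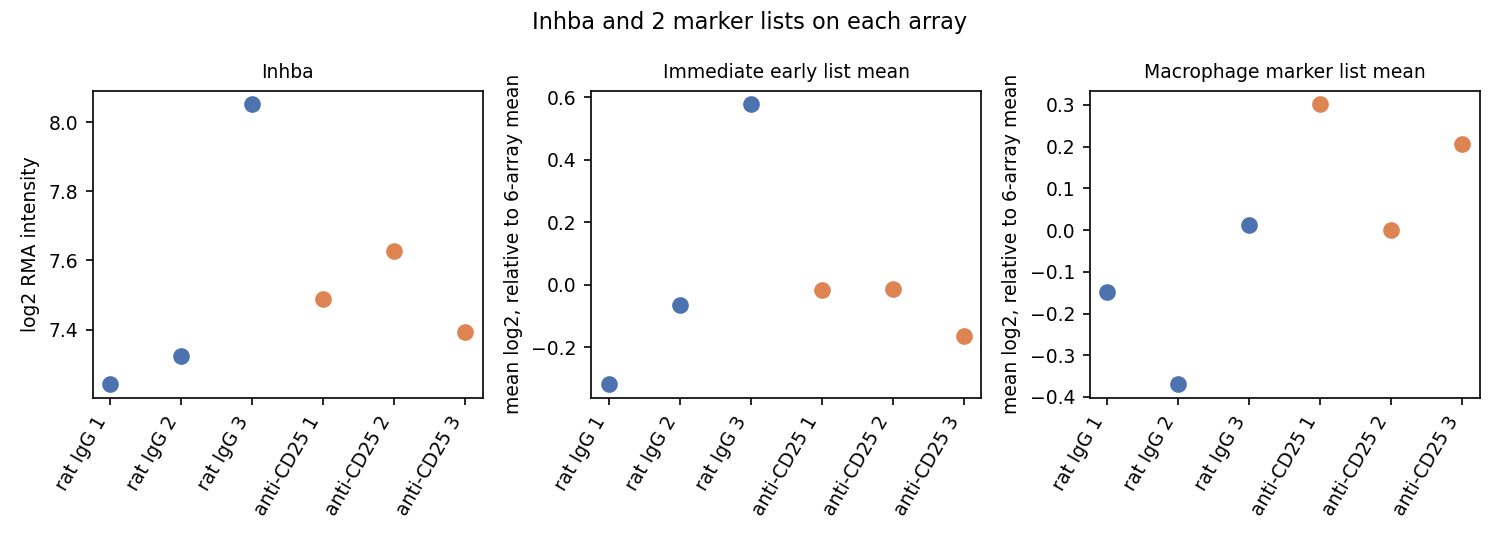
Left, log2 intensity of Inhba; middle and right, the mean of the immediate early and of the macrophage marker list relative to its mean over the 6 arrays, for each array along the horizontal axis (rat IgG blue, anti-CD25 orange). Rat IgG 3 is highest in the first 2 panels, at 8.05 and 0.58, and the macrophage list runs from -0.37 to 0.30.

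Inhbb, the beta B chain of activin B, measured 6.68, 6.68 and 6.78 with rat IgG and 6.58, 6.57 and 6.89 with anti-CD25. Replicate 3 was the highest array of each group, and these are the arrays of low Xist. The difference was -0.029 (SE 0.10, 95% interval -0.26 to 0.21, limma adjusted p = 0.962), and its sign turned with 5 of 17 alternatives.

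Bmp4, a BMP ligand that acts on muscle progenitors, measured 8.40, 8.59 and 8.74 with rat IgG and 8.43, 8.62 and 8.26 with anti-CD25. Replicates 1 and 2 differed little between groups, whereas rat IgG 3 was the highest and anti-CD25 3 the lowest of all arrays. The difference was -0.14 (SE 0.12, 95% interval -0.41 to 0.14, limma adjusted p = 0.806). The 4 high Xist arrays gave 0.033 and the low Xist pair -0.48, a pair that holds that highest and that lowest array. Without rat IgG 3 it was -0.055 and without anti-CD25 3 it was -0.051.

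Gdf5, a BMP-type ligand of joint development that also protects denervated muscle from wasting, was dim. It measured 6.05, 6.18 and 6.02 with rat IgG and 5.84, 5.90 and 6.04 with anti-CD25, against lower quartiles of 5.68 to 5.85 on the arrays. Anti-CD25 3 lay among the rat IgG arrays and the other 2 below them. The difference was -0.16 (SE 0.089, 95% interval -0.36 to 0.046, limma adjusted p = 0.750), and -0.10 after a second quantile normalization. The dimmest 30% of genes, which include Gdf5, had a median difference of -0.080 as deposited and -0.0076 after that normalization.

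Of the secreted inhibitors, Fst, which encodes follistatin, measured 8.55, 8.52 and 8.77 with rat IgG and 8.54, 8.76 and 8.73 with anti-CD25. Each group held values near 8.5 and near 8.8, so the groups overlapped over nearly their whole range. The difference was 0.062 (SE 0.10, 95% interval -0.17 to 0.29, limma adjusted p = 0.904), and it was 0.14 without rat IgG 3. Fstl3, the follistatin relative that binds activins and myostatin, measured 7.63, 7.83 and 7.77 with rat IgG and 7.55, 7.93 and 7.84 with anti-CD25. Replicate 1 was the lowest array of each group, and the anti-CD25 values spread to both sides of the rat IgG values. The difference was 0.031 (SE 0.11, 95% interval -0.23 to 0.29, limma adjusted p = 0.963), with 0.14 without anti-CD25 1 and -0.048 without anti-CD25 2.

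Of the type II receptors, Acvr2b, a high-affinity receptor for activins, myostatin and GDF11, measured 7.34, 7.31 and 7.27 with rat IgG and 7.13, 7.11 and 7.20 with anti-CD25. Each anti-CD25 array was below each rat IgG array. The means were 7.31 ± 0.033 (SD, n = 3) and 7.15 ± 0.043 (SD, n = 3), a ratio of 0.896. The difference of -0.16 (SE 0.076, 95% interval -0.33 to 0.013) had an unadjusted p of 0.0660 and a limma adjusted p of 0.750, so it did not pass either. The spread within groups was narrow, larger than that of only 2.53% of genes. The difference was -0.20 among the 4 high Xist arrays and -0.077 for the low Xist pair. It was below 0 in all 17 alternatives, but as for Gdf11, leaving out arrays or splitting by Xist class could not turn it.

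Acvr2a, the related receptor, measured 8.99, 8.71 and 8.82 with rat IgG and 8.73, 8.92 and 8.63 with anti-CD25. The groups overlapped, with anti-CD25 2 above rat IgG 2 and 3. The difference was -0.079 (SE 0.11, 95% interval -0.32 to 0.16, limma adjusted p = 0.879), and -0.0051 without rat IgG 1.

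**Figure D3:**
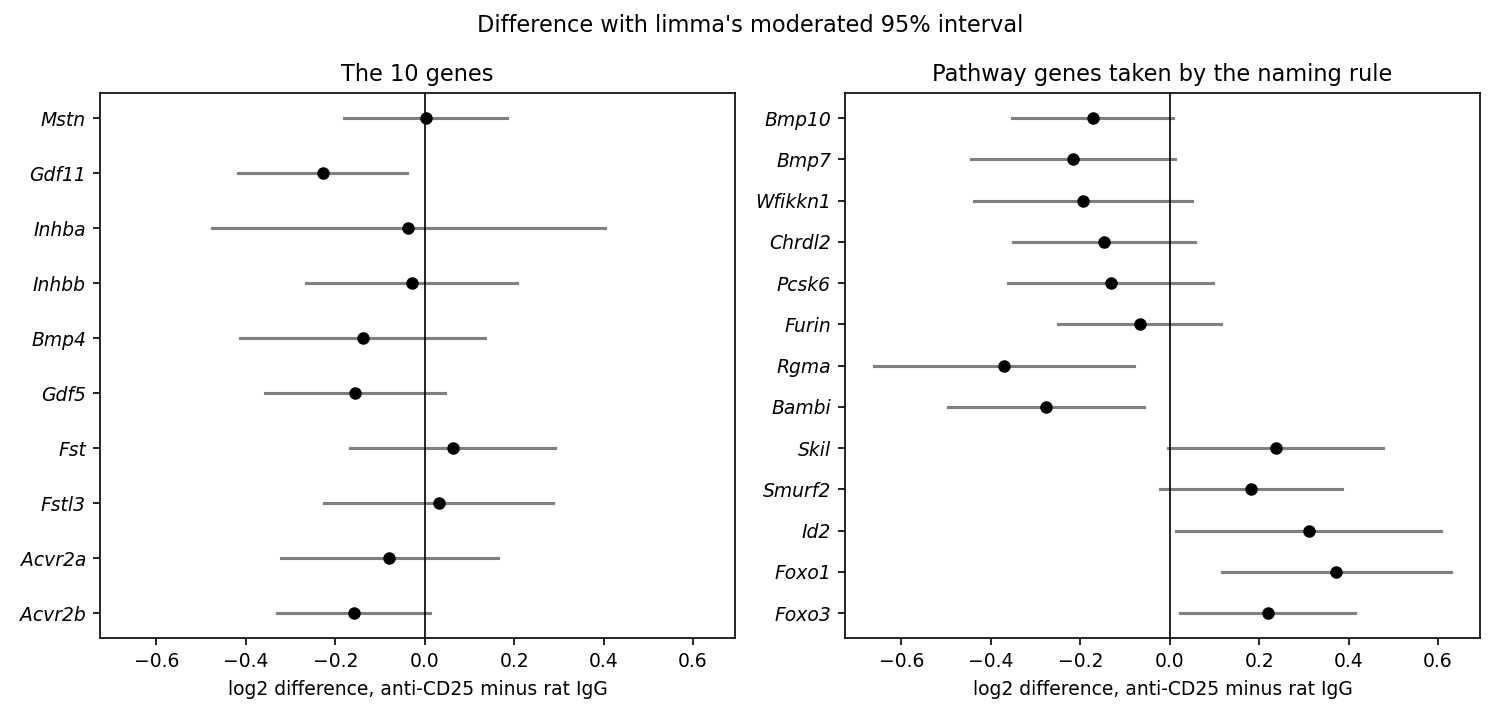
Log2 difference, anti-CD25 minus rat IgG (horizontal axis), with limma's moderated 95% interval, for the 10 genes (left) and the pathway genes taken by the naming rule (right). The interval of Gdf11, -0.42 to -0.039, is the only one of the 10 that leaves out 0 before adjustment. Those of Rgma, Bambi, Id2, Foxo1 and Foxo3 do so on the right. The genes on the right were taken for the largest absolute statistics of their lists, so intervals that leave out 0 were favoured there.

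Muscle tissue holds several cell types, and in bulk samples fewer cells of a type and less RNA per cell cannot be told apart. Macrophage markers were higher with anti-CD25 in 7 of 7 measured genes of 8 listed names, where 8121 of all 19752 genes were higher. Of the 7, 3 were at an unadjusted p under 0.05 by limma (2.30% of all genes in that direction). Only 1 was higher without overlap (4.28% of all genes), and 0 passed the adjusted test. List means ran from -0.37 to 0.011 on the rat IgG arrays and from -0.00093 to 0.30 on the anti-CD25 arrays. The difference was 0.24 to 0.43 when 1 array was left out. Markers of mature fibres, 8 of 8 measured, had list means of -0.0041 to 0.021 and -0.031 to 0.0085. Markers of regenerating fibres, 5 of 5 measured, had a list mean difference of -0.15, which was -0.044 without rat IgG 1. The difference for satellite cells was -0.054, and 0.0027 without rat IgG 3. For tendon it was -0.072, and 0.038 without anti-CD25 3. It was -0.090 for endothelium (-0.13 to -0.061 with 1 array left out) and -0.077 for T cells (-0.17 to -0.028). The endothelial mean rested on Kdr at -0.27 and Tek at -0.20. Pecam1 stood at 0.022, Cdh5 at 0.00047 and Emcn at -0.0018, the median of that list. For smooth muscle and pericytes the list mean difference was -0.058 (-0.098 to -0.020), with 2 genes higher and 3 lower. Myh11 stood at 0.16, Rgs5 at 0.040 and Acta2 at -0.057. The other 2 of the 5 genes, singled out after their values were seen, were lower without overlap, as were 7.46% of all genes. These were Pdgfrb at -0.18 (SE 0.077, unadjusted p = 0.0400, limma) and Cspg4 at -0.25 (SE 0.099, unadjusted p = 0.0361, limma), both at a limma adjusted p of 0.750. Cspg4 was -0.17 without anti-CD25 3. The part of these shifts in the Gdf11 and Acvr2b values was not tested.

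The other genes of the pathway, in 7 lists with 88 distinct measured genes including the 10, also held no gene past the test. Of the 88, 31 were higher and 57 lower (64.8% lower), and 7 lay at an unadjusted p under 0.05 (3 higher, 4 lower). The share of all genes under that value was 6.28%, with 2.30% higher and 3.98% lower. The median difference over the 88 was -0.033. Ligands were lower in 17 of 19 genes, with a median of -0.080, 1 at an unadjusted p under 0.05 and 0 past the adjusted test. Over all genes 58.9% were lower. The median level of the ligand list was 6.82, at percentile 42.5 of all genes, and the dimmest 30% of all genes had a median difference of -0.080. Among ligands that passed the filter at the 30th percentile the median was -0.057, and at the 50th it was -0.088. After a second quantile normalization the ligand median was -0.059 and that of the dimmest genes -0.0076. Bmp7 differed by -0.22 (SE 0.10) and Bmp10, a ligand best known from the heart and dim here, by -0.17 (SE 0.079). The 5 higher and 12 lower extracellular antagonists had a median of -0.046. Wfikkn1, which binds myostatin and GDF11, differed by -0.19 (SE 0.11) (-0.36 among the 4 high Xist arrays, 0.13 for the low Xist pair), and the chordin relative Chrdl2 by -0.15 (SE 0.090). The 6 proteases that release ligands from their precursors had a median of -0.065, with the convertases Pcsk6 at -0.13 and Furin at -0.067.

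Receptors and co-receptors divided into 7 higher and 9 lower genes, with a median of -0.012. Rgma, a membrane-anchored BMP co-receptor, measured 9.13, 9.28 and 9.09 with rat IgG and 8.97, 8.91 and 8.51 with anti-CD25. All anti-CD25 arrays were lower, anti-CD25 3 the most, and the difference was -0.37 (SE 0.13, unadjusted p = 0.0181, limma adjusted p = 0.750). It was -0.23 without anti-CD25 3. Bambi, a decoy receptor without a kinase domain that dampens signalling, measured 7.35, 7.39 and 7.63 with rat IgG and 7.11, 7.20 and 7.23 with anti-CD25. These groups were also apart, with a difference of -0.28 (SE 0.096, unadjusted p = 0.0188, limma adjusted p = 0.750). In the other direction the groups did not overlap for Tgfbr1, a type I receptor that myostatin can use, at 0.19 (SE 0.097, limma adjusted p = 0.750), which was 0.11 without rat IgG 2. Its groups nearly met, at 9.410 on rat IgG 3 and 9.414 on anti-CD25 2.

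Smads and their regulators held 6 higher and 9 lower genes, with a median of -0.019 and 0 at an unadjusted p under 0.05. Skil, a co-repressor of Smad complexes and itself a target of the pathway, differed by 0.24 (SE 0.11); the 4 high Xist arrays gave 0.37 and the low Xist pair -0.035. Smurf2, a ubiquitin ligase for receptors and Smads, differed by 0.18 (SE 0.090). With the mean of its 2 probe sets the difference was 0.23 (SE 0.092, unadjusted p = 0.0350, limma adjusted p = 0.751). Of the signal transducers, Smad2 stood at 0.065 and Smad3 at -0.084, and Smad4, which both branches use, at 0.049. The 3 Smads that BMP receptors activate stood at -0.16 (SE 0.11) for Smad1, the lowest value of the list, -0.11 for Smad5 and -0.12 (SE 0.10) for Smad9, and none passed. Smad1 was -0.27 (unadjusted p = 0.0193, limma) without rat IgG 1 and -0.074 without rat IgG 3.

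BMP target genes were higher in 7 and lower in 6 of 13, with a median of 0.035. Id2, an inhibitor of basic helix-loop-helix factors such as MyoD, measured 10.145, 9.73 and 10.17 with rat IgG and 10.38, 10.17 and 10.43 with anti-CD25. The groups did not overlap but nearly met, at rat IgG 3 and anti-CD25 2, and the difference was 0.31 (SE 0.13, unadjusted p = 0.0414, limma adjusted p = 0.750). It was 0.17 without rat IgG 2. Bambi, which is in this list too, ran the other way, and the inhibitory Smads Smad6 and Smad7 stood at 0.035 and 0.12.

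In the list of atrophy genes, 4 of 6 were higher, with a median of 0.066 that was -0.0049 without rat IgG 2 and 0.15 without rat IgG 3. Foxo1, a transcription factor that activates atrophy ligases, measured 9.001, 9.07 and 9.06 with rat IgG and 9.17, 9.60 and 9.47 with anti-CD25. The groups were apart, and the difference was 0.37 (SE 0.11, unadjusted p = 0.00953, limma adjusted p = 0.750). Foxo3, its relative, differed by 0.22 (SE 0.086, limma adjusted p = 0.750). Fbxo32, the ligase atrogin-1 and a target of these factors, was named after its value was seen and differed by -0.35 (SE 0.15, unadjusted p = 0.0398, limma adjusted p = 0.750), with overlap between groups. It was -0.22 (unadjusted p = 0.150, limma) without rat IgG 2 and -0.50 without rat IgG 3. The ligase Trim63 stood at -0.072 and Fbxo30, which BMP signalling holds down, at 0.032.

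Over the 6 arrays, which share the chip, the authors' normalization and the 2 groups, the 10 genes did not vary as a block. Gdf11 correlated with Gdf5 at r = 0.95 and with Acvr2b at r = 0.91, and Mstn with Inhbb at r = -0.89, as descriptions over 6 points chosen from all pairs. For Mstn the most similar patterns among 9875 brighter genes were those of Commd10, Gtpbp2 and Nr2c1, at r = 0.993, 0.990 and 0.986. For Inhba they were Xpo6, Fbxw8 and Znfx1, at r = 0.998, 0.997 and 0.995, and for Fst they were Mis12, Adgrd1 and Mtap, at r = 0.996, 0.992 and 0.989. With 6 points such values arise in number, and 29, 44 and 43 genes passed r = 0.95 for Mstn, Inhba and Fst.

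**Figure D4:**
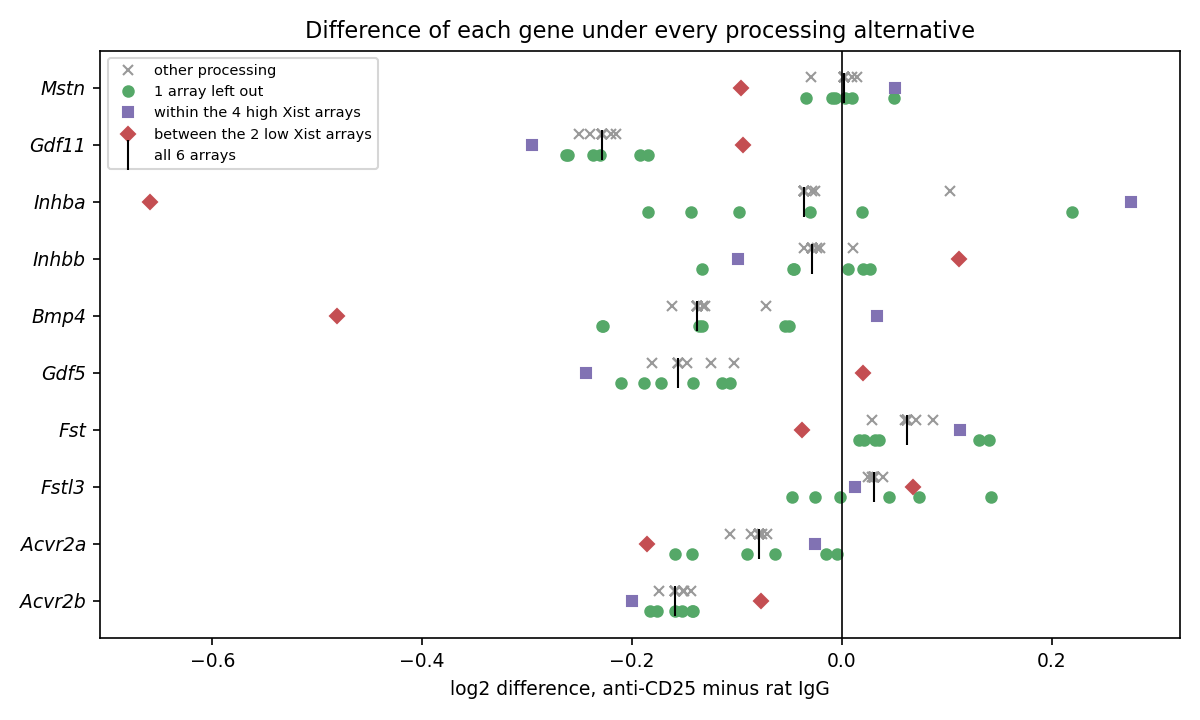
Log2 difference of each of the 10 genes, anti-CD25 minus rat IgG (horizontal axis), over all arrays (black bar), with 1 array left out (green), within the Xist classes (purple, red) and under the other processing alternatives (grey). Gdf11, Acvr2a and Acvr2b lie below 0 in every setting run, and Inhba spreads from -0.66 to 0.28. For Gdf11 and Acvr2b, whose groups do not overlap, leaving out arrays or splitting by Xist class could not turn the sign.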

How the data were processed

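Intensities were deposited by the authors as 1 table of 24922 probe sets on 6 arrays, made with RMA in Affymetrix Power Tools per the submitters' processing notes; its version is not stated there. RMA corrects background, equalises quantiles and summarises probe sets, and it draws dim values together, which understates their differences. The deposited intensity values are linear, so log2 was taken without a pseudocount. Probe sets with 1 symbol in the platform annotation (21425) were used, 1399 with several and 2098 unlisted were not; the brightest probe set stood for each of 19752 genes.

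Groups follow the sample titles. limma 3.58.1 in R 4.3.3 (lmFit, eBayes, two-sided) was fitted over all genes with group as the term and Benjamini-Hochberg adjustment, threshold 0.05; it was tested on simulated data. The genes and lists were chosen with earlier results of these data known. Named genes are the 10, the 2 with the largest statistic in each of 7 lists, the 3 most correlated with Mstn, Inhba and Fst above median brightness, and receptors needed for counts. Fbxo32, Trim63, Fbxo30, the Smads, Pdgfrb, Cspg4, Hspa1a and the other smooth muscle, pericyte and endothelial markers were named after their values were seen. Hfe2, Runx2 and Cdkn1a are not analysed here. Alternatives covered normalization, fit, filters at the 30th and 50th percentile, log2(value + 16), a replicate block, Xist class and leaving out each array.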

Additional observations from a re-analysis of the deposited data

How the results depend on the processing

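No gene of the 10 passed the adjusted test in any setting, at a threshold of 0.1 included. With array weights, 844 genes were higher and 1410 lower at an unadjusted p under 0.05, and 2 of the 10 genes were under it. The balance of these counts, 454 higher and 786 lower over all genes, turned with the filters, to 484 higher and 400 lower at the 30th percentile and 473 higher and 306 lower at the 50th. These filters also gave medians of 0.12 and 0.14 for BMP targets, and at the 50th 1254 genes without overlap, 1 of them among the 10, since Acvr2b is below that filter. With the replicate block, 0 of the 10 were under 0.05, and with log2(value + 16), 2. Within the 4 arrays with high Xist, with fewer samples, there were 1081 higher, 3000 lower and 10269 without overlap, 3 of the 10 under 0.05, 6 without overlap and 5 higher, and a ligand median of -0.13.

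Leaving out 1 array gave 0 to 7 genes past the adjusted test (7 without rat IgG 3), 186 to 1143 higher and 457 to 1887 lower at an unadjusted p under 0.05, and 3144 to 6684 without overlap. Of the 10 genes, 0 to 1 were then under 0.05, 2 to 5 did not overlap and 1 to 5 were higher. List medians ran from -0.13 to -0.065 for ligands, -0.11 to -0.025 for antagonists, -0.027 to 0.10 for BMP targets, -0.0049 to 0.15 for atrophy genes, -0.063 to 0.0046 for Smads, -0.049 to 0.011 for receptors and -0.094 to -0.037 for proteases. Differences that turned sign ran from -0.035 to 0.050 for Mstn, -0.18 to 0.22 for Inhba, -0.13 to 0.027 for Inhbb, -0.048 to 0.14 for Fstl3, -0.060 to 0.11 for Smad6, -0.23 to 0.040 for Trim63 and -0.011 to 0.071 for Fbxo30.

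Other turns of sign were Mstn at -0.029 and Inhbb at 0.011 after a second quantile normalization, Inhba at 0.10 with array weights and 0.28 within the 4 arrays with high Xist, Bmp4 at 0.033 within those 4, and Trim63 at 0.00079 with array weights and 0.061 within those 4. Between the 2 arrays with low Xist, Mstn was -0.096, Inhbb 0.11, Gdf5 0.020, Fst -0.038, Wfikkn1 0.13, Skil -0.035, Smad2 -0.048, Smad4 -0.071, Smad9 0.0029 and Fbxo30 -0.055. The cause was not tested. Deviations from the group mean correlated at 0.030, -0.0067 and -0.17 between arrays of the same replicate number. With 3 arrays per group, these values cannot show whether such arrays were paired. In both groups replicates 1 and 2 were high in Xist and replicate 3 was low. The block changed no other count of the 10. Differences of dim genes such as Gdf5 are limited by signal over background.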
